A study of Canis lupus familiaris with 29 samples.

Results

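Polysialic acid is a long chain of sialic acid residues carried by a small number of cell surface proteins, and the genes described here encode the enzymes of the family that builds it, the main carrier with a close relative, and a matrix protein that binds that carrier. There were 9 such genes among the 30951 genes of the count table. ST8SIA2 and NCAN were chosen by their difference between tumors and normal adrenal medulla in these same samples, so their values in that comparison are given as a description, without a test. The other 7 (ST8SIA1, ST8SIA3, ST8SIA4, ST8SIA5, ST8SIA6, NCAM1 and NCAM2) were chosen by gene family.

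Polysialic acid is built in the Golgi apparatus, mostly on the neural cell adhesion molecule NCAM1, where the bulky, negatively charged chain loosens contacts between cells. It is abundant in the developing nervous system, becomes scarce in most adult tissues, and is found again in several tumors of neural and neuroendocrine origin. The shared name of the genes is wider than this function. ST8SIA2 and ST8SIA4 are the polysialyltransferases, whereas ST8SIA1 and ST8SIA5 add sialic acid to gangliosides, ST8SIA3 makes short chains, and ST8SIA6 acts on O-linked glycans. NCAN (neurocan) is a chondroitin sulfate proteoglycan that binds NCAM1, and is not known as a carrier of polysialic acid. RNA was measured here, and the sugar chain itself was not.

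RNA was sequenced from samples of 29 dogs, namely 10 normal adrenal medullas (NAMs) and 19 tumors, of which 7 were in PPGL group 1 and 12 in PPGL group 2. PPGL stands for pheochromocytoma and paraganglioma, tumors of chromaffin cells inside the adrenal medulla and outside it. The tumors were taken from client-owned dogs at several clinics and the NAMs from healthy dogs kept for research, so that tissue and origin cannot be told apart; ages and breeds were not used here. The authors left out 2 outlying tumors and drew both PPGL groups from a principal component analysis of the same samples, so a p-value between the groups describes that split. Total counts per sample were 19258054 to 35918182 in NAMs, 18493540 to 31919833 in group 1 and 18208718 to 24569667 in group 2. Levels are given as CPM, the count scaled to equal library size, after TMM normalization. A level of 3 counts, taken as the smallest that these depths can show, lay between 0.0781 and 0.164 CPM for NAMs and between 0.0895 and 0.175 CPM for PPGLs, which covers counting error only.

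The labelled tissues were checked against marker genes. All 12 chromaffin cell markers were found, and their summed level had a median of 32593.5 CPM in NAMs, 35886.5 CPM in group 1 and 49589 CPM in group 2, with CHGB, a granule protein, as the most abundant. Of 11 adrenal cortex markers 10 were found, and their summed level ranged from 14132 to 69130.1 CPM in NAMs (median 37415.5 CPM), from 92.1 to 1166 CPM in group 1 (median 275 CPM) and from 255 to 34337 CPM in group 2 (median 3684 CPM). CYP17A1, a steroidogenic enzyme, was the most abundant of them in NAMs and group 2, and STAR, which brings cholesterol into mitochondria, in group 1. The samples labelled as medulla thus held RNA of cortical genes beside that of chromaffin cells, and group 2 lay between NAMs and group 1. A cortical score, the mean log2 CPM of these 10 genes, was 10.45 ± 0.72 (SD, n = 10) in NAMs, 1.54 ± 1.55 (SD, n = 7) in group 1 and 7.07 ± 1.88 (SD, n = 12) in group 2. In bulk tissue, fewer cells of a type and less RNA per cell cannot be told apart.

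Differences were tested with edgeR's quasi-likelihood test across all genes, and the log2 FC is given with its standard error (SE). Between PPGLs and NAMs a gene was called at an FDR-adjusted p below 0.05, which held for 37.5% of the 14766 genes tested (22.3% higher and 15.2% lower in PPGLs). These were 3295 genes higher and 2246 lower. The balance depended on the method: the Mann-Whitney U-test called 2915 higher and 2990 lower, and edgeR with a replicate block 2273 higher and 2380 lower. All 9 members passed the low-count filter. Of the 7 not chosen on this comparison, 2 were higher in PPGLs (ST8SIA1 and ST8SIA3), 1 was lower (ST8SIA5) and 4 were not called, a share close to that of all genes. Between the PPGL groups the threshold was 0.1, and 6.92% of the 14666 genes tested passed it (3.97% higher and 2.95% lower in group 1). Of the 9 members 1 was called there, NCAM1, which was higher in group 1. Each PPGL group was also compared with the same 10 NAMs alone, a step added after the data were seen. Group 1 differed from NAMs in 35.8% of all genes and in 2 of the 6 members tested, and group 2 in 40.9% of all genes and in 5 of the 6 members tested.

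ST8SIA2, a polysialyltransferase best known from the embryonic and newborn brain, lies on chromosome 3 from 47588797 to 47655593 of CanFam3.1, on the minus strand. In NAMs its level ranged from 0.0693 to 0.749 CPM with a median of 0.262 CPM, and 2 of the 10 NAMs were at or under 3 counts. In PPGL group 1 the lowest tumor had 1.28 CPM, the median was 57.1 CPM and the highest tumor had 131 CPM. In PPGL group 2 the lowest tumor had 0.370 CPM, the median was 2.41 CPM and the highest tumor had 122 CPM. All 7 tumors of group 1 and 9 of the 12 tumors of group 2 lay above every NAM, and the remaining 3 tumors of group 2 lay within the range of the NAMs. The spread among tumors was wide in both groups: tumors 6 and 4 of group 1, with 1.28 and 6.75 CPM, lay far below the other 5, and tumor 12 of group 2 alone held 56.3% of the summed level of its group. Against NAMs, PPGLs had a log2 FC of 6.76 (SE 1.12), and the ratio of the mean levels was 109.8. In a model that held the cortical score the log2 FC was 5.17.

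Between the PPGL groups, the level of ST8SIA2 overlapped, with 1 tumor of group 1 above every tumor of group 2 and 4 tumors of group 2 below every tumor of group 1. Group 1 against group 2 gave a log2 FC of 1.83 (SE 0.99, 95% interval -0.23 to 3.88, edgeR FDR-adjusted p = 0.320). The high level of tumor 12 of group 2 bore on this: without that tumor the log2 FC was 2.88 and the edgeR FDR-adjusted p was 0.0884.

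ST8SIA4, the polysialyltransferase that persists in adult tissues and in leukocytes, lies on the same chromosome 3 from 9708173 to 9845015, on the plus strand. Its level was 1.85 to 15.4 CPM in NAMs (median 5.68 CPM), 1.57 to 35.8 CPM in group 1 (median 2.80 CPM) and 1.57 to 16.5 CPM in group 2 (median 3.63 CPM). The groups overlapped almost fully, with 15 of 19 PPGLs inside the range of the NAMs, 2 above it and 2 below it. The log2 FC of PPGLs against NAMs was -0.13 (SE 0.46, 95% interval -1.08 to 0.81, edgeR FDR-adjusted p = 0.843), and that of group 1 against group 2 was 0.75 (SE 0.57, edgeR FDR-adjusted p = 0.501). Single samples set these signs: without NAM 1 the former was 0.10, and without tumor 6 of group 1, which held 64.3% of the summed level of its group, the latter was -0.52.

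The 2 PPGLs with ST8SIA4 above every NAM were tumor 6 of group 1 (35.8 CPM) and tumor 11 of group 2 (16.5 CPM). Each of them was the tumor with the lowest ST8SIA2 of its group, with 1.28 and 0.370 CPM, and neither had a count on NCAN. Of 9 leukocyte markers 8 were found, with CSF1R, a receptor of macrophages, as the most abundant in each group. Their summed level was 448 CPM in tumor 11 of group 2, the highest of the 19 PPGLs, and 44.4 CPM in tumor 6 of group 1, the lowest of its group, against medians of 138 CPM in NAMs and 67.5 CPM in PPGLs. MS4A1, a B cell gene, was at or under 3 counts in every NAM, as was KLRB1, a gene of natural killer cells, in every tumor of group 1. All 8 endothelial and fibroblast markers were found, with VWF, an endothelial gene, as the most abundant in NAMs, and the collagen genes COL1A2 and COL1A1 in groups 1 and 2. Their summed level was 16833 CPM in tumor 11 of group 2, the highest of all samples, and 328 CPM in tumor 6 of group 1, the lowest, against medians of 787 CPM in NAMs and 990.2 CPM in PPGLs. The part of these cell types in the level of ST8SIA4 was not tested.

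Levels of different genes were compared per kb of exon, a scale that depends on the gene models, whose exons sum to 6208 bases for ST8SIA2 and 1471 bases for ST8SIA4. On this scale ST8SIA2 made up 0.312% to 3.85% of the summed level of both polysialyltransferases in NAMs (median 1.05%). The share was 0.841% to 95.2% in group 1 (median 82.1%) and 0.527% to 84.0% in group 2 (median 17.6%). ST8SIA4 therefore was the more abundant of the pair in all 10 NAMs and in 9 of 12 tumors of group 2, whereas ST8SIA2 was the more abundant in 5 of 7 tumors of group 1. The summed level itself had a median of 3.88 CPM per kb in NAMs, 16.9 CPM per kb in group 1 and 3.88 CPM per kb in group 2, with 24.5 CPM per kb in the highest tumor of group 1 and 23.5 CPM per kb in that of group 2.

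**Figure D1:**
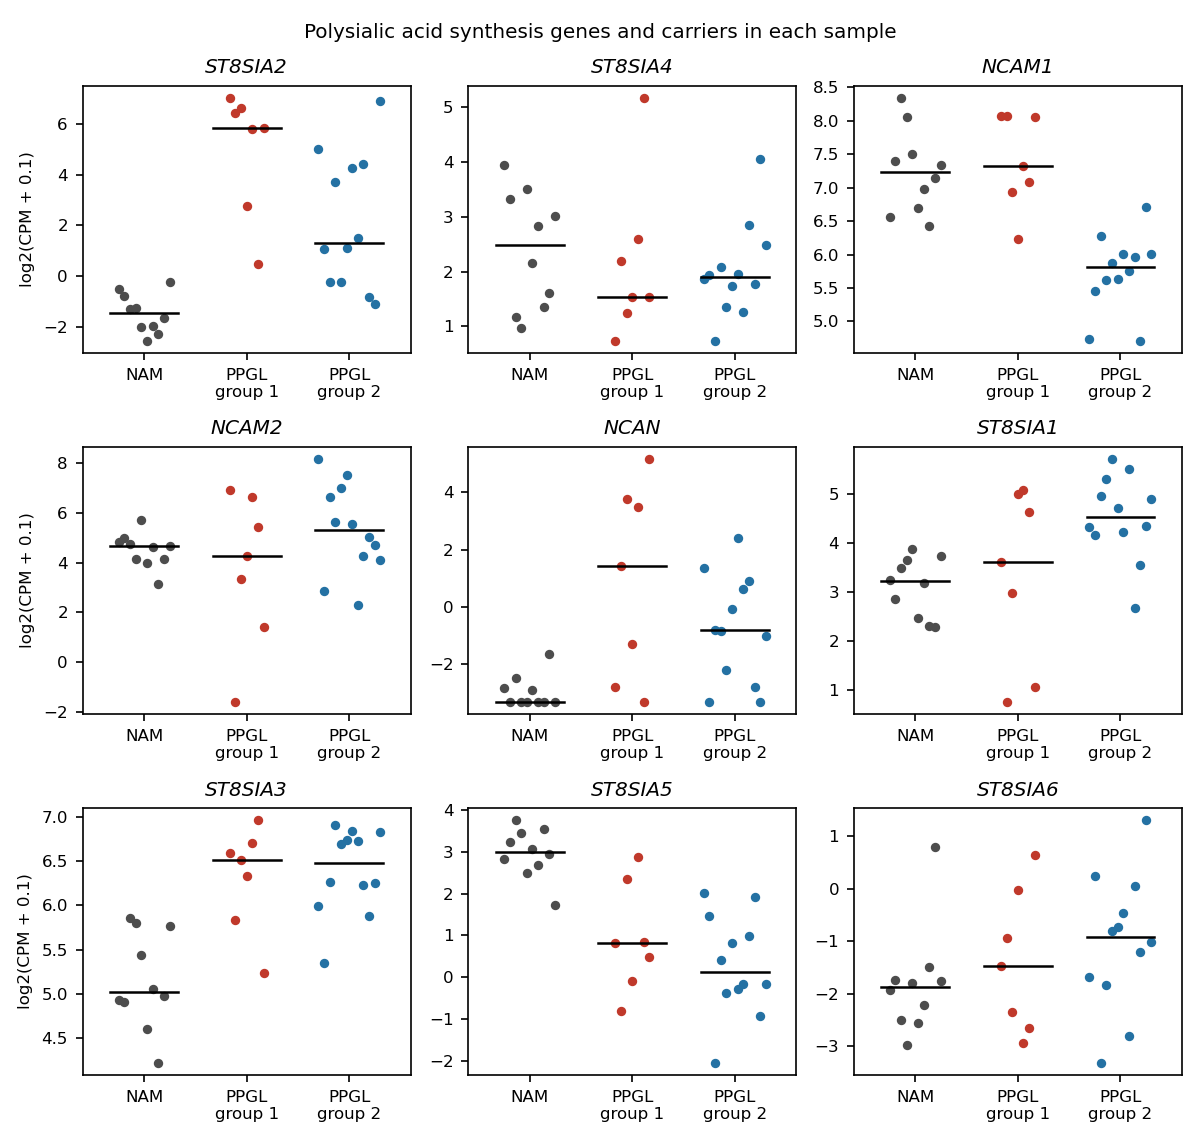
Level of each gene in each sample as log2(CPM + 0.1), by group (NAMs, n = 10; PPGL group 1, n = 7; PPGL group 2, n = 12); each point is 1 sample and the line is the median. ST8SIA2 lies above every NAM in 16 of 19 PPGLs, and NCAM1 lies below every NAM in 11 of 12 tumors of group 2.

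NCAM1, the main carrier of polysialic acid and a homophilic adhesion molecule of neurons and neuroendocrine cells, lies on chromosome 5 from 19895613 to 20191995, on the minus strand. Its level was 85.9 to 324 CPM in NAMs (median 152 CPM), 74.9 to 270.2 CPM in group 1 (median 160.3 CPM) and 26.0 to 105 CPM in group 2 (median 56.2 CPM). The tumors of group 2 were the low ones: 11 of 12 lay below every NAM and 10 of 12 below every tumor of group 1, whereas 6 of 7 tumors of group 1 lay within the range of the NAMs. The mean level was 185 ± 81.7 CPM (SD, n = 7) in group 1 and 56.7 ± 21.5 CPM (SD, n = 12) in group 2. The log2 FC of group 1 against group 2 was 1.71 (SE 0.27, 95% interval 1.14 to 2.29, edgeR FDR-adjusted p = 0.00541), and 6 of 7 tumors of group 1 lay above every tumor of group 2. NCAM1 did not pass the threshold between all PPGLs and NAMs (log2 FC -0.66, SE 0.34, edgeR FDR-adjusted p = 0.128), although it did with the Mann-Whitney U-test (FDR-adjusted p = 0.0373). Against NAMs alone, group 2 was lower (log2 FC -1.54, SE 0.24, edgeR FDR-adjusted p = 5.17e-05) and group 1 was not called (log2 FC 0.18, SE 0.30, edgeR FDR-adjusted p = 0.679).

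Marker genes were set beside NCAM1. The cortical score separated the PPGL groups almost fully, the highest of group 1 being 4.07 and the lowest of group 2 being 3.40. Once the score was added to the model, the log2 FC of NCAM1 between the PPGL groups was 0.44 (edgeR FDR-adjusted p = 0.801, range over the alternatives 1.21e-06 to 0.801). In that fit 0 of 14666 genes were called by edgeR, and 1546 had an unadjusted p below 0.05. Between PPGLs and NAMs the same covariate moved the log2 FC of NCAM1 to -2.56 (edgeR FDR-adjusted p = 1.42e-06, range over the alternatives 1.42e-06 to 0.679). The upper end of that range is group 1 alone against NAMs, which is a change of samples. The score separated the tissues almost fully too, with every PPGL but tumor 10 of group 2 (10.34) below the lowest NAM (9.31). All values adjusted for the score in this comparison thus reach beyond the scores that both tissues share. The NAMs had the highest mean score and also high NCAM1. Within NAMs and within group 2, NCAM1 was lower at the high end of the score than at the low end, which was not tested. The 2 NAMs with the highest scores (11.50 and 11.26) had 85.9 and 104 CPM of NCAM1, and the 2 with the lowest (9.31 and 9.41) had 181 and 266 CPM. In group 2 the 2 tumors with the highest scores (10.34 and 8.90) had 26.0 and 43.6 CPM, and the 2 with the lowest (3.40 and 4.98) had 64.2 and 105 CPM. The order between these ends was not strict. Tumor 12 of group 2 (score 7.80) had 64.4 CPM, and NAM 9 (10.73) had 141 CPM against 94.0 CPM in NAM 1 (10.48). Of 12 neuronal markers 11 were found, and their summed level followed the order of NCAM1, with medians of 995 CPM in NAMs, 1078 CPM in group 1 and 525.96 CPM in group 2. The single markers did not run alike: between PPGLs and NAMs, ELAVL3, ELAVL4, GAP43 and RBFOX3 were higher, NEFL and NEFM were lower and 5 were not called. Between the PPGL groups only DCX was called, higher in group 1 (log2 FC 3.76, edgeR FDR-adjusted p = 0.0563), and 10 were not. The SD of DCX in group 1, 10.7 CPM, exceeded its mean of 5.25 CPM. The most abundant neuronal marker was NEFM, a neurofilament, in NAMs, STMN2, a microtubule regulator of axons, in group 1 and SNAP25, a protein of synaptic vesicle release, in group 2. All 8 Schwann and sustentacular cell markers were found, and their summed level had a median of 108 CPM in NAMs, 32.96 CPM in group 1 and 30.7 CPM in group 2. CDH19, an adhesion molecule, was the most abundant of them in NAMs and ERBB3, a receptor, in both PPGL groups. The part of these cell types in the level of NCAM1, or in that of ST8SIA5, was not tested.

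**Figure D2:**
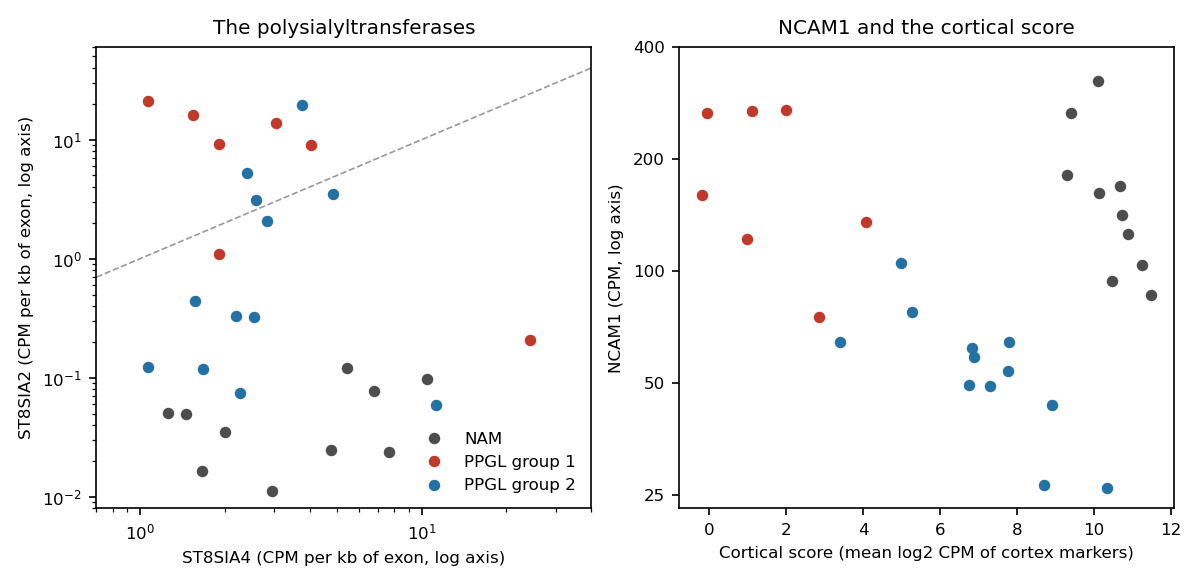
Left, ST8SIA2 against ST8SIA4 in CPM per kb of exon on log axes, with the dashed line where both are equal; right, NCAM1 in CPM on a log axis against the cortical score; each point is 1 of 29 samples, colored by group. ST8SIA2 lies above the line in 5 of 7 tumors of group 1, 3 of 12 of group 2 and 0 of 10 NAMs, and NCAM1 is lowest in group 2, whose mean cortical score was 7.07.

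NCAM2, a relative of NCAM1 known from olfactory neurons, spans 16912908 to 17429510 of chromosome 31, on the plus strand. Its level was 8.77 to 51.5 CPM in NAMs (median 24.9 CPM), 0.235 to 119 CPM in group 1 (median 19.2 CPM) and 4.82 to 282 CPM in group 2 (median 39.4 CPM). The tumors spread to both sides of the NAMs, with 6 of 19 above every NAM, 4 below every NAM and 9 within their range. PPGLs against NAMs gave a log2 FC of 1.34 (SE 0.64, edgeR FDR-adjusted p = 0.10004). DESeq2 called it (FDR-adjusted p = 0.0476, range over the alternatives 0.0256 to 0.656), as did edgeR without tumor 2 of group 1, the lowest tumor (log2 FC 1.41, FDR-adjusted p = 0.0491). The Mann-Whitney U-test did not (FDR-adjusted p = 0.545), and without tumor 1 of group 2, the highest tumor, the log2 FC was 1.02 (edgeR FDR-adjusted p = 0.184). The lower end of the range over the alternatives is group 2 alone against NAMs, which is a change of samples. Against NAMs alone, group 2 was higher (log2 FC 1.59, SE 0.56, edgeR FDR-adjusted p = 0.0256), while group 1 was not called (log2 FC 0.77, edgeR FDR-adjusted p = 0.410). The groups themselves did not differ beyond the spread among tumors (log2 FC of group 1 against group 2 -0.79, SE 0.88, edgeR FDR-adjusted p = 0.665).

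NCAN lies on chromosome 20 from 43945143 to 43970886, on the minus strand, and is known as a component of the brain's extracellular matrix. The 10 NAMs had 8 counts on it in all, of which NAM 9 had 4, and 9 NAMs were at or under 3 counts. The level in group 1 ranged from 0 to 35.8 CPM (median 2.58 CPM) and in group 2 from 0 to 5.19 CPM (median 0.464 CPM). The highest tumor, tumor 7 of group 1, held 46.8% of the summed level of the 19 PPGLs, and 6 PPGLs were at or under 3 counts. This tumor stood apart in marker genes too. Of 10 cell cycle genes 9 were found, with TOP2A as the most abundant in PPGLs, and their summed level was 1785 CPM in tumor 7, against 320 CPM in the next PPGL and medians of 46.0 CPM in NAMs, 206 CPM in group 1 and 92.2 CPM in group 2. Of these 9 genes 7 were called higher in group 1 than in group 2, against 3.97% of all genes tested. The SD of TOP2A in group 1, 234 CPM, exceeded its mean of 137 CPM. The chromaffin cell markers summed to 8950.3 CPM in tumor 7, the lowest of all samples, and the 3 tumors of group 1 with the highest NCAN (7, 3 and 5) had the 3 lowest sums of their group. Group 2 did not run alike: its tumor with the highest NCAN, tumor 7 of that group, had a sum of 62912.8 CPM, above the group's median of 49589 CPM. The part of these markers in the level of NCAN was not tested. Of the 19 PPGLs 13 lay above every NAM, 5 of 7 in group 1 and 8 of 12 in group 2. The log2 FC of PPGLs against NAMs was 6.73 (SE 1.41). With so few counts in NAMs this value depends on the prior count, and was 5.12 with a prior count of 2. A model that held the cortical score gave 2.88.

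Between the PPGL groups the log2 FC of NCAN was 3.02 in favor of group 1 (SE 1.09, 95% interval 0.74 to 5.30, edgeR FDR-adjusted p = 0.130). There were 3 tumors of group 1 above every tumor of group 2, while the other 4 lay among them. The call depended on the samples and the test. DESeq2 called it (FDR-adjusted p = 0.0541, range over the alternatives 0.0541 to 0.895), and edgeR did without tumor 1 or 6 of group 1 or without tumor 7 of group 2 (log2 FC 3.24, 3.24 and 3.60). Without tumor 7 of group 1, the highest tumor, the log2 FC was 2.07 (edgeR FDR-adjusted p = 0.356), and the Mann-Whitney U-test gave an FDR-adjusted p of 0.658. The sign turned in a model that held the cortical score, to a log2 FC of -1.77 (edgeR FDR-adjusted p = 0.895). The score separated the PPGL groups almost fully, so score and group can hardly be told apart in that fit. No conclusion is drawn from the sign there. The 13 PPGLs with NCAN above every NAM were all among the 16 with ST8SIA2 above every NAM, which is 81.2% of these 16 and 100% of the 13.

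The remaining sialyltransferases of the family are not polysialyltransferases. ST8SIA1, the GD3 synthase of the ganglioside pathway, had 4.81 to 14.6 CPM in NAMs (median 9.25 CPM), 1.60 to 34.1 CPM in group 1 (median 12.2 CPM) and 6.28 to 52.6 CPM in group 2 (median 23.3 CPM). It was higher in PPGLs (log2 FC 1.31, SE 0.40, edgeR FDR-adjusted p = 0.0107), with 13 of 19 PPGLs above every NAM and 2, both of group 1, below. The high tumors were mostly of group 2, of which 10 of 12 lay above every NAM, against 3 of 7 in group 1, but the difference between the groups was not called (log2 FC -0.69, SE 0.52, edgeR FDR-adjusted p = 0.494). Against NAMs alone, group 2 was higher (log2 FC 1.53, SE 0.30, edgeR FDR-adjusted p = 0.000443) and group 1 was not called (log2 FC 0.84, SE 0.50, edgeR FDR-adjusted p = 0.201).

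ST8SIA3, which makes short chains of sialic acid and is known mainly from the brain, had 18.5 to 57.8 CPM in NAMs (median 32.3 CPM), 37.7 to 125 CPM in group 1 (median 91.5 CPM) and 40.6 to 119.9 CPM in group 2 (median 90.1 CPM). It was higher in PPGLs (log2 FC 1.199, SE 0.20, edgeR FDR-adjusted p = 5.34e-05), and 16 of 19 PPGLs lay above every NAM. Both PPGL groups were high to a like extent, and the log2 FC between them was -0.05 (SE 0.24, 95% interval -0.54 to 0.45, edgeR FDR-adjusted p = 0.936). Each group on its own was also higher than NAMs, with a log2 FC of 1.17 in group 1 and 1.22 in group 2 (edgeR FDR-adjusted p = 0.00173 and 0.000125).

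ST8SIA5, which extends gangliosides to their more sialylated forms, was the member that was lower in PPGLs (log2 FC -2.09, SE 0.41, edgeR FDR-adjusted p = 0.000252). Its level was 3.23 to 13.4 CPM in NAMs (median 7.91 CPM), 0.469 to 7.25 CPM in group 1 (median 1.66 CPM) and 0.142 to 3.91 CPM in group 2 (median 1.01 CPM). Of the 19 PPGLs 15 lay below every NAM and 0 above. Each PPGL group alone was lower than NAMs, with a log2 FC of -1.66 in group 1 and -2.40 in group 2 (edgeR FDR-adjusted p = 0.0121 and 0.000129). ST8SIA6 was near the limit of detection, with medians of 0.174 CPM in NAMs, 0.262 CPM in group 1 and 0.432 CPM in group 2, and 4 NAMs and 5 PPGLs at or under 3 counts. Its log2 FC was 0.94 (SE 0.66, edgeR FDR-adjusted p = 0.269). NAM 9 had 1.64 CPM, 56.0% of the sum over the NAMs, and without it the log2 FC was 1.92. The other NAMs had at most 0.255 CPM, so the gene then passed the low-count filter through PPGLs alone. No p-value is given for that fit.

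Ordered by their median level per kb of exon, NCAM1 (21.6 CPM per kb) and ST8SIA3 (20.9 CPM per kb) led in NAMs and could not be ranked, since NCAM1 was the higher of them in 4 of 10 NAMs. They were followed by NCAM2 (9.51 CPM per kb), ST8SIA1 (7.19 CPM per kb), ST8SIA4 (3.86 CPM per kb) and ST8SIA5 (3.81 CPM per kb), of which the last pair likewise overlapped. ST8SIA6, ST8SIA2 and NCAN came last, each with a median below 0.1 CPM per kb. In group 1 ST8SIA3 was highest with 59.4 CPM per kb, above NCAM1 (22.9 CPM per kb) in 5 of 7 tumors, and ST8SIA2 (9.20 CPM per kb) stood beside ST8SIA1 (9.47 CPM per kb) with overlapping ranges. In group 2 ST8SIA3 was highest in 11 of 12 tumors, with a median of 58.5 CPM per kb. The exception was tumor 1, where NCAM2 had 107 CPM per kb against 41.4 CPM per kb of ST8SIA3. By its median NCAM1 (8.02 CPM per kb) stood below ST8SIA1 (18.1 CPM per kb) and NCAM2 (15.02 CPM per kb). ST8SIA4 was below NCAM1 in all 12 tumors of group 2 and had a median of 2.47 CPM per kb there, against 0.388 CPM per kb for ST8SIA2.

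Relations between members were computed across the 19 PPGLs for 4 pairs, on log2 CPM with permutation tests of 100000 resamples and adjustment over the 4 pairs. ST8SIA2 and NCAN rose together (Pearson r = 0.62, permutation p = 0.00530, adjusted p = 0.0212; Spearman rho = 0.59, permutation p = 0.00854, adjusted p = 0.0342). Without tumors 10 and 11 of group 2, the 2 farthest from the median of ST8SIA2, r was 0.52 (permutation p = 0.0318, adjusted p = 0.109) and rho was 0.45 (permutation p = 0.0681, adjusted p = 0.136). The calls, at adjusted p below 0.05, were thus lost without these tumors, while both values kept their sign. Leaving out the tumors most extreme in ST8SIA2 also narrows its range and leaves 17 samples, and these effects were not separated. Within group 1 rho was 0.21 (exact permutation p = 0.661, n = 7) and within group 2 it was 0.67 (permutation p = 0.0197, adjusted p = 0.0790, n = 12).

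The other pairs did not pass. For ST8SIA2 and its acceptor NCAM1, r was 0.47 (permutation p = 0.0440, adjusted p = 0.0879) and rho was 0.43 (permutation p = 0.0645, adjusted p = 0.129), while rho was 0.54 within group 1 (exact permutation p = 0.236, n = 7) and -0.13 within group 2 (permutation p = 0.698, n = 12). For NCAM1 and NCAN, which bind each other as proteins, r was 0.29 (permutation p = 0.235, adjusted p = 0.313) and rho was 0.24 (permutation p = 0.331, adjusted p = 0.442). For the polysialyltransferases ST8SIA2 and ST8SIA4, r was -0.22 (permutation p = 0.386, adjusted p = 0.386) and rho was -0.05 (permutation p = 0.833, adjusted p = 0.833). Without the 2 tumors farthest from the median of the former of each pair, r was 0.46, 0.43 and -0.09 in these 3 pairs. Within group 1 the rho of ST8SIA2 and ST8SIA4 was -0.71 (exact permutation p = 0.0881, adjusted p = 0.352, n = 7), with tumor 6 at 1 end of both.

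The genes whose levels followed a member most closely over the 19 PPGLs were named by Spearman rho among 12696 genes, as a description. For ST8SIA2 these were TMEFF2 (rho 0.85), MSANTD1 (0.83), KLHL31 (0.80), CBLC (0.77) and TFR2 (0.77). Their rho was 0.61, 0.93, 0.46, 0.67 and 0.89 within group 1, and 0.94, 0.62, 0.81, 0.87 and 0.64 within group 2. For NCAM1 they were ARHGEF18 (rho 0.82), SSBP3 (0.82), DYNC1I2 (0.79), OLA1 (0.78) and CBFB (0.77). Within group 1 the rho of these 5 genes was 0.57, 0.32, 0.04, 0.04 and 0.61, and within group 2 it was 0.49, 0.60, 0.55, 0.56 and 0.36. For NCAN they were POGZ (rho 0.91), PAXIP1 (0.88), CARMIL3 (0.87), RUSF1 (0.86) and DOC2A (0.86), each with a rho of at least 0.75 within either group.

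The neighboring genes were looked at for ST8SIA2, NCAN, NCAM1, NCAM2 and ST8SIA4, taking the 2 nearest tested genes with a name on each side. Genes with no name were passed over. The 4 neighbors of ST8SIA2 (RGMA, CHD2, SLCO3A1 and SV2B) had log2 FCs of PPGLs against NAMs between -0.21 and 0.24, and none was called. Of the 4 neighbors of NCAN, MAU2, SUGP1 and RFXANK were higher in PPGLs, with log2 FCs of 0.73, 0.52 and 0.58, and NR2C2AP was not called. Of those of NCAM1, DRD2, a dopamine receptor gene, was higher in PPGLs (log2 FC 5.18, edgeR FDR-adjusted p = 2.39e-07), while TTC12, PTS and BCO2 were not called. Beside NCAM2, MRPL39 was lower (log2 FC -0.43, edgeR FDR-adjusted p = 0.0113), and beside ST8SIA4, SLCO6A1 was lower (log2 FC -3.52, edgeR FDR-adjusted p = 0.000343), with the other 3 neighbors of each not called. No exon of the 9 members overlapped an exon of another gene in the table.

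Genes of the related pathways were taken from lists by function. Of 71 such genes 65 were found by name, and 57 could be tested between PPGLs and NAMs, of which 14 were higher, 9 were lower and 34 were not called. The 23 called were a share close to the 37.5% of all genes. Their median log2 FC, over the 57, was 0.33, against 0.13 over all genes tested. Between the PPGL groups 58 could be tested, of which 2 were higher in group 1, 5 were lower and 51 were not called, with a median log2 FC of -0.07 against 0.04 over all genes, of which 6.92% were called.

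Many of these calls did not hold in models with the cortical score. Between PPGLs and NAMs 11 of the 23 genes kept their call there, 12 lost it and 2 others (B4GALT6 and CNTN4) gained one. The loss was not particular to these genes, as the calls over all 14766 genes tested fell from 5541 to 2175. Those that lost it were ST3GAL5, ST3GAL6, ST6GALNAC2, UGCG, FYN, GFRA1, GAP43, SPTBN1, CSPG5, SDC3, CHSY1 and CHST12. All 7 genes called between the groups (ST6GALNAC5, ST6GALNAC4, UGCG, CADM1, CNTN4, VCAN and CHSY1) lost their call, as edgeR then called 0 of the pathway genes, with 12 at an unadjusted p below 0.05. In that fit edgeR called 0 of all 14666 genes tested, so this loss was not particular to these 7 either. The score separated the PPGL groups almost fully, so score and group can hardly be told apart there. The log2 FC of CNTN4 shrank to 0.47, while those of the other 6 kept their sign and were no smaller. The Mann-Whitney U-test called 3 of the 7 (ST6GALNAC5, ST6GALNAC4 and CHSY1) and DESeq2 called all 7. The gene values that follow are those without the score.

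Of the 4 genes found for the synthesis and transport of activated sialic acid, 1 was called. This was SLC35A1, the transporter that carries CMP-sialic acid into the Golgi apparatus, which was higher in PPGLs (NAMs 16.4 ± 2.58 CPM (SD, n = 10), group 1 28.6 ± 6.59 CPM (SD, n = 7), group 2 24.5 ± 5.35 CPM (SD, n = 12); log2 FC 0.67, SE 0.14, edgeR FDR-adjusted p = 0.000349). GNE, NANS and CMAS, which make and activate sialic acid, had log2 FCs of -0.07, 0.05 and 0.10 and were not called. The list's median log2 FC was 0.07. NEU1, the lysosomal sialidase and the only sialidase tested, was not called either (log2 FC 0.18).

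Among the 14 other sialyltransferases, 12 were tested, of which 5 were higher in PPGLs, 3 were lower and 4 were not called (median log2 FC 0.36). ST6GALNAC5, which makes alpha-series gangliosides in the brain, had a log2 FC of 2.15 (SE 0.78, edgeR FDR-adjusted p = 0.0308), with 7.88 ± 8.06 CPM (SD, n = 12) in group 2 and 0.663 ± 0.815 CPM (SD, n = 7) in group 1. The NAMs had 1.18 ± 0.688 CPM (SD, n = 10), so the higher mean in PPGLs came from group 2 alone. The difference between the groups was called too (log2 FC of group 1 against group 2 -3.52, SE 0.91, edgeR FDR-adjusted p = 0.0405), as was that of ST6GALNAC4 (log2 FC -1.04, SE 0.26, edgeR FDR-adjusted p = 0.0378). ST6GALNAC2 and ST3GAL6 were higher in PPGLs with log2 FCs of 1.60 and 1.31. ST3GAL1, which sialylates O-linked glycans, was lower in both PPGL groups, whose means were 28.4 ± 17.2 CPM (SD, n = 7) and 36.7 ± 17.7 CPM (SD, n = 12), than in NAMs, where it was 133 ± 76.5 CPM (SD, n = 10) (log2 FC -1.98, SE 0.30, edgeR FDR-adjusted p = 1.55e-05).

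Of 5 genes tested for the core synthesis of gangliosides, the substrates of ST8SIA1 and ST8SIA5, 0 were higher and 2 were lower in PPGLs (median log2 FC -0.39). ST3GAL5, the GM3 synthase directly before ST8SIA1, had a log2 FC of -1.25 (SE 0.35, edgeR FDR-adjusted p = 0.00572). UGCG, which makes the glucosylceramide at the start of the pathway, had a log2 FC of -0.87 (SE 0.23, edgeR FDR-adjusted p = 0.00411) and was also lower in group 1 than in group 2 (log2 FC -0.88, SE 0.27, edgeR FDR-adjusted p = 0.0739).

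Of the other known carriers of polysialic acid, NRP2, a receptor of semaphorins and vascular growth factors, was higher in PPGLs (log2 FC 1.76, SE 0.38, edgeR FDR-adjusted p = 0.000722), with a mean of 628 ± 690.1 CPM (SD, n = 7) in group 1, 1063 ± 549 CPM (SD, n = 12) in group 2 and 268 ± 109 CPM (SD, n = 10) in NAMs. CADM1, an adhesion molecule, was lower in PPGLs (log2 FC -1.14, SE 0.29, edgeR FDR-adjusted p = 0.00271). Like NCAM1 it was higher in group 1 (30.4 ± 14.3 CPM, SD, n = 7) than in group 2 (11.6 ± 3.77 CPM, SD, n = 12), with a log2 FC of 1.41 (SE 0.29, edgeR FDR-adjusted p = 0.0159). CCR7, a chemokine receptor, did not pass the low-count filter.

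Of 12 genes for partners and signaling of NCAM, 3 were higher in PPGLs, 2 were lower and 7 were not called (median log2 FC 0.41). GAP43, a growth cone protein, had the largest difference of the list (log2 FC 4.23, SE 1.10, edgeR FDR-adjusted p = 0.00346), with 101 ± 141 CPM (SD, n = 7) in group 1, 17.7 ± 31.9 CPM (SD, n = 12) in group 2 and 2.59 ± 1.63 CPM (SD, n = 10) in NAMs. GFRA1, a receptor of the GDNF family that can signal through NCAM, was lower (log2 FC -1.93, SE 0.55, edgeR FDR-adjusted p = 0.00671). PTPRA and FYN, the phosphatase and the kinase of the intracellular NCAM pathway, were higher with log2 FCs of 0.67 and 0.53. Between the groups CNTN4, a contactin, was called (log2 FC 4.94, SE 1.06, edgeR FDR-adjusted p = 0.0174), although its SD of 161 CPM in group 1 exceeded the mean of 71.7 CPM.

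Of 12 tested genes for lecticans, the family of NCAN, and the matrix around them, 1 was higher in PPGLs, 1 was lower and 10 were not called (median log2 FC 0.57). CSPG5, a proteoglycan of neurons, had a log2 FC of 0.80 (SE 0.26, edgeR FDR-adjusted p = 0.0181) and SDC3, a syndecan, one of -0.82 (SE 0.23, edgeR FDR-adjusted p = 0.00582). VCAN, the lectican with the highest mean CPM in each group, was lower in group 1 than in group 2 (log2 FC -3.34, SE 0.96, edgeR FDR-adjusted p = 0.0589), although its SD of 219 CPM in group 2 exceeded the mean of 119 CPM. Of 10 genes for chondroitin sulfate synthesis, 3 were higher in PPGLs, 1 was lower and 6 were not called (median log2 FC 0.14). CHST11, CSGALNACT2 and CHST12 had log2 FCs of 1.16, 0.93 and 0.75. CHSY1, a polymerase of the chain, had a log2 FC of -1.55 (SE 0.32, edgeR FDR-adjusted p = 0.000383) and was lower in group 1 than in group 2 as well (log2 FC -1.19, SE 0.36, edgeR FDR-adjusted p = 0.0749).

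**Figure D3:**
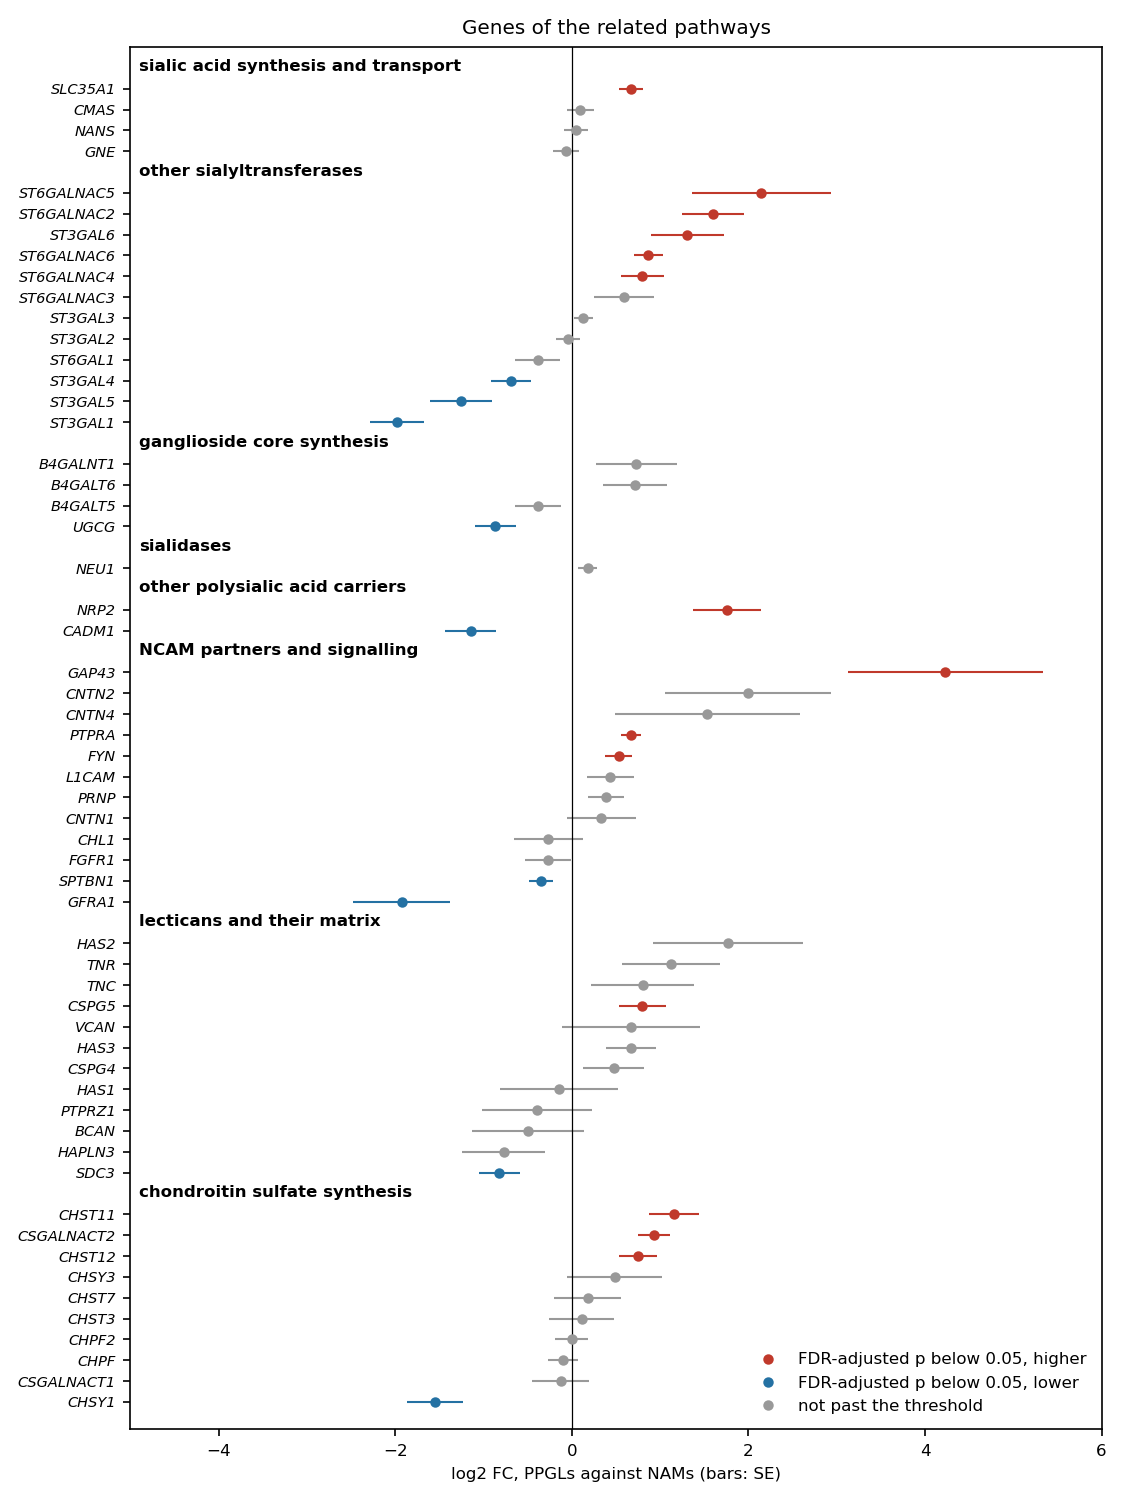
The log2 FC of PPGLs against NAMs for the 57 tested genes of the related pathways, with bars for the SE, by list; red and blue mark genes higher and lower at an FDR-adjusted p below 0.05, and ST3GAL5, which is in 2 lists, is drawn once. GAP43 has the largest log2 FC, 4.23, and ST3GAL1 the lowest, -1.98.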

How the data were processed

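RNA was sequenced by the authors from 10 NAMs and 19 PPGLs. The deposited table held 1 count per gene and sample, and a Length column (other) with summed exon bases, per the file headers. The submitters' notes name FastQC, STAR, Picard, HTSeq and CanFam3.1, whereas the table is laid out like featureCounts output, so the counting tool could not be settled; strand setting and multi-mapping handling were not given in the sources used here. The 12712 genes with no name were kept in. Genes were filtered with filterByExpr (minimum count 10, total 15), scaled with TMM and tested with edgeR 4.0.16 (quasi-likelihood F test, prior count 0.125) in R 4.3.3, with p-values adjusted over all genes tested. Alternatives used DESeq2 1.42.0, the Mann-Whitney U-test, other scalings, filters and prior counts, a replicate block, a model with the cortical score, and leaving out each sample. Ranges and tallies over the alternatives leave out the fits without 1 sample. Between PPGLs and NAMs they also hold each PPGL group alone against NAMs. Correlations used log2 CPM with prior count 2 in Python 3.11.15 (numpy 2.4.6, scipy 1.17.1). Scripts were tested on simulated data. Of each pathway list the called genes with the largest absolute log2 FC were named, at most 4 per comparison, with the 5 genes most like ST8SIA2, NCAM1 and NCAN each and the most abundant marker; other names were chosen after their values were seen. The members and lists were chosen with earlier results of these data known.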

Additional observations from a re-analysis of the deposited data

Results flagged for a closer look

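A sample far from the others of its group was found in 5 of 18 sets of samples. For normally distributed values chance alone flags about 1 in 20. That rate does not hold for skewed levels or levels near 0 counts, so 5 of 18 is not read as an excess. Group 2, with 12 samples, was not checked in this way. ST8SIA4 had 35.8 CPM in tumor 6 of group 1, with 5.97 CPM in the next tumor. ST8SIA6 had 1.64 CPM in NAM 9, with 0.255 CPM in the next NAM. NCAM2 had 51.5 CPM in NAM 5, with 31.5 CPM in the next NAM. NCAN had 0.219 CPM in NAM 9, which is 4 counts, with 0.0764 CPM in the next NAM. In tumor 7 of group 1 NCAN had 35.8 CPM, with 13.5 CPM in the next tumor. For NCAM1 the difference to NAMs differed between the PPGL groups, by a log2 FC of 1.71 (edgeR FDR-adjusted p = 0.00541).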

How the results depend on the processing

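Apart from leaving out samples, 243 values kept their direction and side of the threshold under the alternatives, and 25 moved, 7 weakened, 6 strengthened and 8 reversed. Scalings moved the median log2 FC of all genes by less than 0.1. The cause was not tested for any value below.

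With the cortical score as a covariate, 2175 genes differed between PPGLs and NAMs (1203 higher, 972 lower), with 13 pathway genes. ST8SIA1, ST8SIA3 and ST8SIA5 kept their calls there, with log2 FCs of 1.72, 1.09 and -2.35 (edgeR FDR-adjusted p = 0.0266, 0.0081 and 0.0074). Between the PPGL groups edgeR then called 0 genes in either direction (1546 at an unadjusted p below 0.05), 0 members (0 unadjusted) and 0 pathway genes (12 unadjusted), and NCAN reversed to a log2 FC of -1.77. The score separated these groups almost fully, so the fit can hardly tell score and group apart, and no conclusion is drawn from its lost calls. DESeq2 called 1793 genes between the groups (916 higher, 877 lower), 2 members and 11 pathway genes, and ST8SIA4 reversed to -0.50. The Mann-Whitney U-test called 386 (160 higher, 226 lower) and 3 pathway genes. Replicate numbers count different dogs, and same-number samples correlated above 0.1 in 0 of 7, 2 of 10 and 0 of 7 pairs. With a replicate block edgeR called 47 genes between the groups (10 higher and 37 lower, with 1526 at an unadjusted p below 0.05). It called 0 members (4 unadjusted) and 0 pathway genes (14 unadjusted), so that NCAM1 and all 7 pathway genes lost their call. Tumors 8 to 12 of group 2 share no number with group 1, and tumors 11 and 12 none with a NAM. They did not inform those differences, so a call lost with the block does not separate less power from a smaller difference. NCAM1 with the block had a log2 FC of 1.73 between the groups (edgeR FDR-adjusted p = 0.156, range over the alternatives 1.21e-06 to 0.801). ST8SIA1 between PPGLs and NAMs had one of 1.03 (edgeR FDR-adjusted p = 0.0624, range 0.000443 to 0.201). The ends of this last range are group 2 alone and group 1 alone against NAMs, which is a change of samples. The block gave NCAM2 0.43 between PPGLs and NAMs (edgeR FDR-adjusted p = 0.656, range 0.0256 to 0.656) and NCAN 2.08 between the groups (edgeR FDR-adjusted p = 0.774, range 0.0541 to 0.895). In the comparisons added after the data were seen, group 2 alone gave 5 members called against NAMs. Group 1 alone reversed ST8SIA4 to 0.29 and NCAM1 to 0.18, and did not call ST8SIA1.

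Leaving out 1 sample at a time gave 4954 to 5790 genes between PPGLs and NAMs (2945 to 3383 higher, 2009 to 2407 lower), 3 to 4 members and 21 to 25 pathway genes. Between the groups it gave 525 to 1218 genes (256 to 733 higher, 269 to 485 lower), 1 to 2 members and 5 to 9 pathway genes. The log2 FC of ST8SIA4 ranged from -0.60 to 0.10 between PPGLs and NAMs, and from -0.52 to 1.12 between the groups. That of ST8SIA3 between the groups ranged from -0.17 to 0.0884 (0.03 without tumor 2 of group 1, 0.00 without tumor 4 of group 2) and that of ST8SIA6 from -0.98 to 0.0950.

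Spearman rho of ST8SIA2 and NCAN was 0.45 without the 2 farthest tumors, 0.21 within group 1 and 0.67 within group 2. For ST8SIA2 and NCAM1 it was -0.13 within group 2, for NCAM1 and NCAN -0.0357 within group 1, and for ST8SIA2 and ST8SIA4 0.10 without the 2 farthest tumors and 0.29 within group 2.

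ST8SIA6 and NCAN gave no value where they failed the low-count filter, which was so at a minimum of 1 CPM (for NCAN between PPGLs and NAMs only), in a single PPGL group against NAMs and without certain PPGLs. Depth limits both genes and ST8SIA2 in NAMs. The groups differ in cortical RNA, origin of the dogs and the way they were drawn, which cannot be told apart from tissue. Protein and the sugar chain were not measured.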
